A study of Mus musculus with 18 samples.

Results

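Polysome loading with mTOR inhibited was measured as polysome-associated mRNA against total mRNA of the same lysate, in RAW264.7 cells given LPS together with torin1. RAW264.7 is a mouse macrophage line, LPS is a bacterial cell wall component that activates macrophages, and torin1 inhibits the kinase mTOR in both of its complexes. The cells were pretreated with 100 nM torin1 for 15 min and then given 500 ng/mL LPS in combination with torin1 for 6 h, in 3 independent experiments. From each lysate total mRNA was sequenced next to the pooled heavy polysome fractions of a sucrose gradient, which makes 6 libraries chosen by their labels out of 18. The other 12 libraries came from cells given LPS for 6 h without torin1 and from cells given vehicle, 6 of each. No allele or transgene entered the comparison, and all cells belonged to 1 line.

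In cells, a ribosome initiates on the capped end of an mRNA, and an mRNA with several ribosomes sediments in the heavy part of the gradient. mTOR complex 1 keeps initiation going through phosphorylation of the 4E-BP proteins, which otherwise block the cap-binding factor eIF4E, and of S6 kinases. The mRNAs known to depend most on it carry a 5′ terminal oligopyrimidine (TOP) tract, a C at the cap followed by a run of pyrimidines, and they encode ribosomal proteins and several translation factors. The repressor LARP1 binds such tracts when mTOR is inhibited.

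The measure called loading here is the log2 ratio of polysome-associated to total mRNA after normalization of all libraries to each other. It is relative: the median gene lies near 0 by construction (−0.01), and a loss of ribosomes shared by all mRNAs would not show. The 6 libraries held between 30422715 and 47725557 counts on 11243 protein-coding genes. The ratios of the 3 experiments correlated across genes with Pearson coefficients of 0.643, 0.691 and 0.598, a description in which the genes are no replicates. Macrophage markers were measured for 16 of 16 genes and markers of other cell types for 2 of 18, Itgax and Cdh5, with mean counts of 1147 and 16.2.

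Tracts of some mRNAs whose loading fell with torin1 are shown first, because ribosomal protein mRNAs set this treatment apart from LPS alone. The examples were taken from falling genes that had such a tract, so they do not show how common it was. The sequences are RefSeq transcription starts in GRCm38.p6, 30 bases each on the strand of the gene, with the pyrimidine tract in capitals after 5 flanking bases. The position follows each name. In Rpl12 and Cox7a2l the tract began 2 and 3 bases past the annotated start.

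Rps18, chr17:33955641-33955670, minus strand: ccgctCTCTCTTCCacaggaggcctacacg
Rps15a, chr7:118116123-118116152, minus strand: gccatCTTCCCTCgccggtgagtgagtgtt
Rpl12, chr2:32961709-32961738, plus strand: tccgtCTTTTCggctttcggctcggaggag
Rpl28, chr7:4792960-4792989, plus strand: tgtctCTCTTTCCgtctccggccgccatag
Cox7a2l, chr17:83514306-83514335, minus strand: cgggtCCTTTTCTagggcggtcgcacaggc

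A TOP-like start was scored where a C followed by at least 5 bases that are each C or T began within 5 bases of the annotated start, on the strand of the gene only. Of the 8568 genes with a RefSeq start, 1099 (12.8%) had one. It was 26 of 58 ribosomal protein genes (44.8%) and 10 of 19 genes whose loading fell against LPS (52.6%). Both sets overlap, since 20 of the 25 genes whose loading fell encode ribosomal proteins. By GENCODE transcript starts, searched only downstream, the share was 15.2% of all genes. It was 44.3% of ribosomal protein genes and 66.7% of genes whose loading fell. TOP-like starts are matches of letters and not mapped cap sites.

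Polysome-associated and total mRNA differed widely with LPS and torin1. By edgeR's quasi-likelihood test with each lysate as a block, 2746 of 11243 genes (24.4%) were higher in polysomes and 2869 (25.5%) were lower, at an adjusted p of at most 0.05. Of these 5615 genes, 5559 had the same sign in all 3 experiments. The 5th and 95th percentiles of loading were −0.94 and 0.80, and 171 genes were at least 2-fold higher and 450 at least 2-fold lower. Without the replicate block 3481 genes passed. Loading with torin1 had an SD across genes of 0.552, against 0.633 with LPS and 0.675 with vehicle, and correlated across genes with loading under those treatments at 0.900 and 0.882.

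Among the lists, histones had the highest median loading (1.53), followed by nuclear-encoded respiratory chain subunits (0.56) and mitochondrial ribosomal proteins (0.44). Splicing proteins (−0.52) and mRNAs of the mitochondrial genome (−2.13) had the lowest medians. The plot of list medians shows every list with more than 2 genes measured. Counts of list members given below are to be set against 24.4% of all genes higher and 25.5% lower in polysomes.

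**Figure D1:**
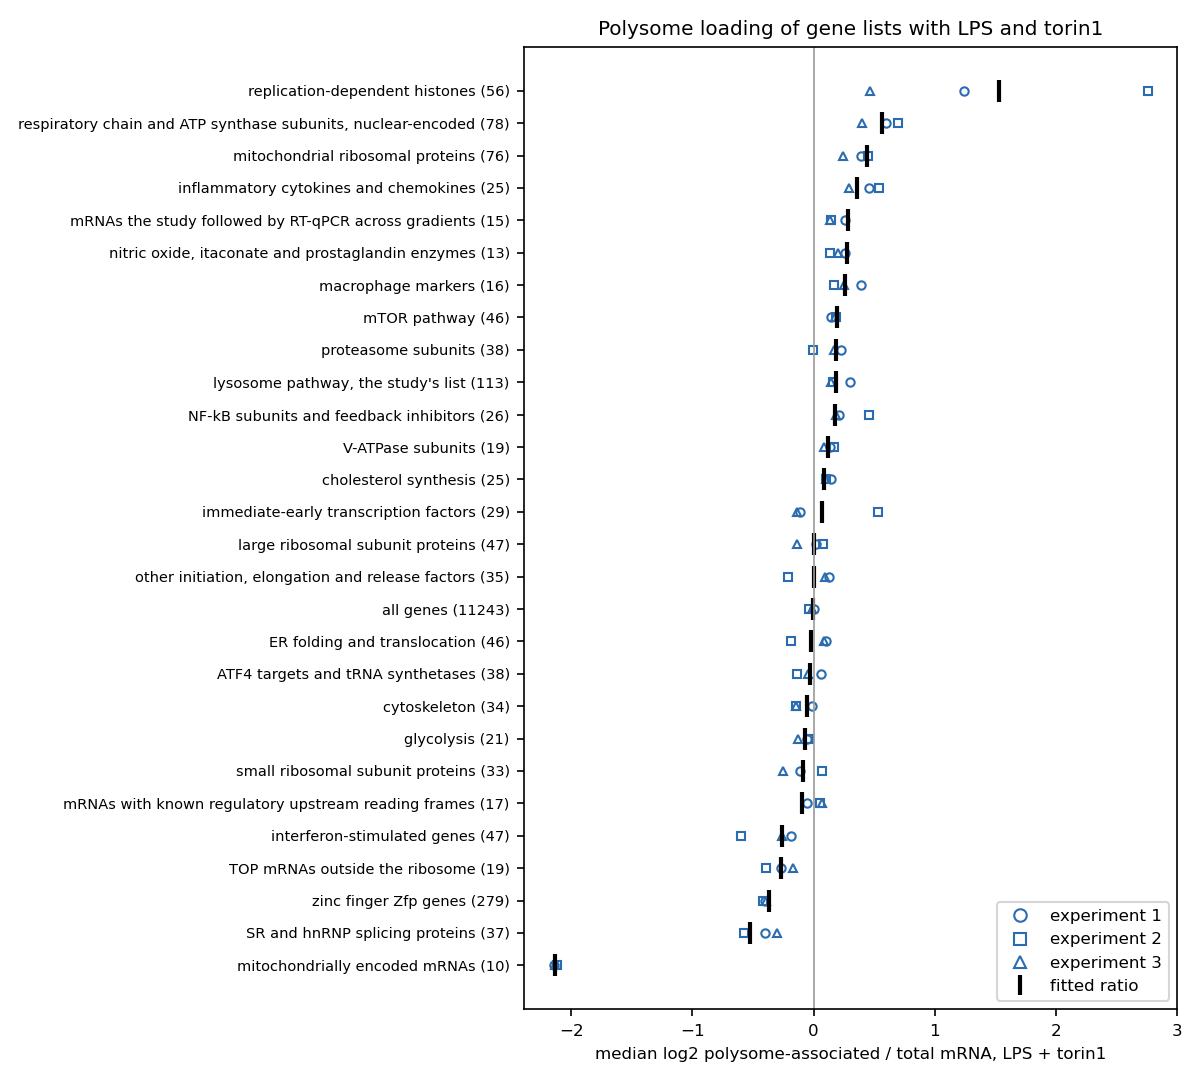
Median log2 ratio of polysome-associated to total mRNA in LPS + torin1 cells for each gene list, with the number of genes in parentheses. Open symbols are the 3 experiments and black bars the fitted ratios. Mitochondrially encoded mRNAs lie at −2.13 in the fit, and the histone list spreads from 0.47 to 2.76 between experiments.

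The ribosomal protein mRNAs, which encode the structural proteins of both subunits, had no excess in polysomes with torin1. Of the 80 measured, 9 were higher in polysomes, 15 were lower and 56 did not pass the test. The median loading of the 47 large subunit genes was 0.00 and that of the 33 small subunit genes −0.09. In the 3 experiments the median of all 80 was −0.04, 0.07 and −0.18 (mean −0.05 ± 0.13, SD, n = 3), and 36, 48 and 22 genes lay above 0. The same list had medians of 0.61, 0.46 and 0.52 with LPS (mean 0.53 ± 0.07, SD, n = 3) and of 0.40, 0.56 and 0.41 with vehicle (mean 0.46 ± 0.09, SD, n = 3). No experiment with torin1 reached the lowest value without it.

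Rps19, a small subunit protein (chr7:24884371-24889806), had 376, 438 and 388 CPM, read counts scaled to library size and normalized by TMM, in total mRNA of experiments 1 to 3 and 262, 293 and 225 CPM in polysomes. The polysome values all lay below the totals, a loading of −0.63 (standard error 0.09, adjusted p = 0.000143 in edgeR's test). With LPS alone, total Rps19 was 435, 380 and 413 CPM and polysome Rps19 580, 458 and 541 CPM. Total levels of both treatments overlapped, and polysome levels did not.

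Rps18 (chr17:33951999-33956001) had 332, 362 and 298 CPM in total mRNA and 277, 319 and 225 CPM in polysomes with torin1. Its loading was −0.28, against 0.62 with LPS. Rpl12, a protein of the stalk base, had 488, 548 and 448 CPM in total mRNA and 326, 358 and 270 CPM in polysomes. Its loading of −0.64 was among the lowest of the large subunit. Rps7 had 395, 416 and 351 CPM in total mRNA and 281, 292 and 246 CPM in polysomes, and its groups did not overlap either.

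The ribosomal list was not uniform. The lowest loading in the small subunit was that of Rps12 (−0.97, adjusted p = 0.000394 in edgeR), with 276, 272 and 273 CPM in total mRNA and 137, 202 and 98.4 CPM in polysomes. Rplp1, an acidic stalk protein, was lowest in the large subunit (−0.87), but its experiments disagreed: the ratios were −1.11, 0.20 and −1.67. At the other end, Rpl38 had a loading of 0.53 and passed the test. Rpl38 was higher in polysomes in each experiment, with 277, 293 and 242 CPM in total mRNA and 402, 480 and 309 CPM in polysomes. A pseudogene of the same name is annotated for 61 of the 80 genes, so reads may have been shared between copies.

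**Figure D2:**
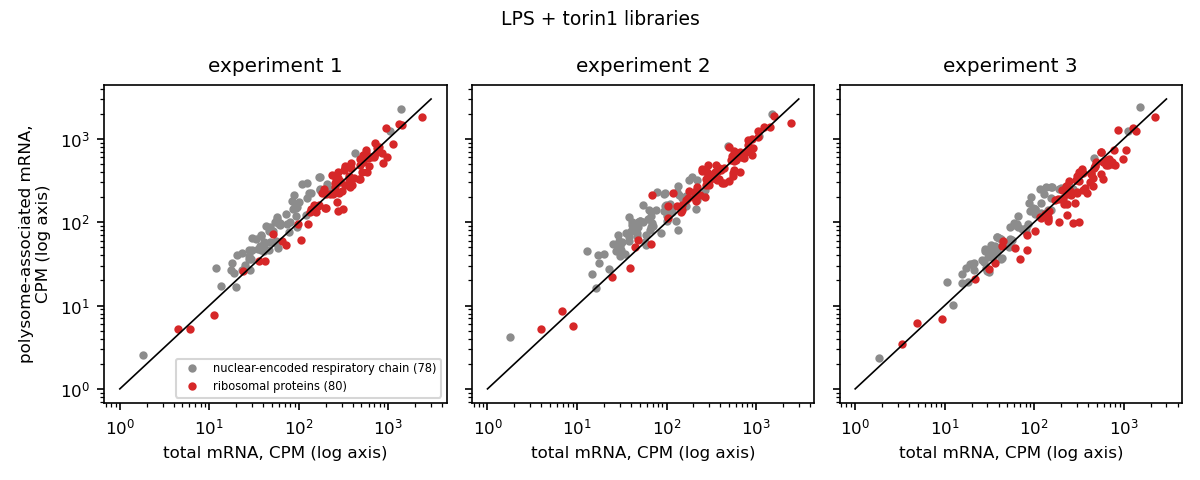
Polysome-associated against total mRNA in CPM (both axes log) in the 3 LPS + torin1 experiments, with one point per gene. Red points are the 80 ribosomal protein genes and grey points the 78 nuclear-encoded respiratory chain genes. Red points scatter around the line of equality and most grey points lie above it.

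The change in loading with torin1 was tested as the ratio with LPS and torin1 minus the ratio with LPS alone. The threshold was an adjusted p of at most 0.25, the value in the study's methods. There it was applied in the anota2seq algorithm together with further filters, which were not used here. A ratio also moves where only total mRNA changes. Loading fell for 25 genes (0.222% of those tested) and rose for 0. Unadjusted, 303 genes had a p under 0.05, of which 262 were lower and 41 higher, and DESeq2 called 39 lower and 1 higher. Of the 25 genes, 20 were ribosomal protein genes, out of 80 tested. Against vehicle, loading fell for 3 genes (0.0267%), Rps19, Rps18 and Tmem132a, and rose for 0, with 820 genes, of which 703 were lower, at an unadjusted p under 0.05. DESeq2 called 29 lower and 2 higher there. With so few calls over all genes, a list with 0 genes past these tests is not told apart from the background. Both comparisons share the torin1 libraries and are therefore not independent.

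These counts depended on the block and on single experiments. The block joins the libraries of a lysate and takes no account of an experiment number shared between treatments. With a term for that number, added after the data were seen, 36 genes fell and 0 rose against LPS, and 26 fell and 1 rose against vehicle. With a correction for GC content and length 29 fell and 2 rose against LPS, Bag1 (0.41) and Qars (0.48), named after their values were seen. Without the replicate block 0 genes passed against LPS and 0 against vehicle, with 110 and 145 at an unadjusted p under 0.05. Leaving out experiment 1, 2 or 3 gave 0, 115 and 0 genes against LPS and 0, 3708 and 2 against vehicle. Of the 115 genes, 2 rose and the others fell. The 3708 genes went both ways, with 1581 that rose and 2127 that fell.

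The direction was broader than the calls. The difference from LPS was negative for 79 of 80 ribosomal protein genes, with a median of −0.58, and Rpl5 was the exception (0.00). Over all genes the median difference was −0.03, and 6221 of 11243 were negative. Against vehicle 78 of 80 were negative, with a median of −0.45. The 3 torin1 ratios lay below all 3 LPS ratios for 56 ribosomal protein genes (70.0%), against 4.56% of all genes, and below all 3 vehicle ratios for 55 (68.8%), against 6.81% of all genes. No ribosomal protein gene had its 3 torin1 ratios above all 3 LPS or all 3 vehicle ratios. Over all genes these shares were 1.43% and 2.67%, so 0 of 80 is near the background.

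Rps19 had the lowest adjusted p, with a difference of −0.99 from LPS (standard error 0.14, adjusted p = 0.0361 in edgeR) and of −0.80 from vehicle (adjusted p = 0.229). Rps18 followed with −0.90 (adjusted p = 0.0474). The other 18 ribosomal protein genes fell by between 0.66 and 1.02 on the log2 scale. Just inside the threshold lay Rpl34 (−0.69), Rpl27 (−0.70) and Rps13 (−0.66, adjusted p = 0.1998), and just outside it Rps12 (−1.02, adjusted p = 0.298) and Rps24 (−0.71). The neighbours on both sides of the threshold were thus ribosomal as well.

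The 5 other genes were Tpt1, Cox7a2l, Rps18-ps3, Rps27rt and the unnamed gene model Gm11808. Rps18-ps3 and Rps27rt are named as copies of ribosomal protein genes, so their reads are uncertain. Tpt1 encodes TCTP, a known TOP mRNA. It had 325, 367 and 342 CPM in total mRNA and 149, 155 and 144 CPM in polysomes with torin1. Its loading was −1.21 with torin1, −0.56 with LPS and −0.61 with vehicle. Cox7a2l, which takes part in respiratory supercomplex assembly, had 155, 167 and 143 CPM in total mRNA and 157, 155 and 139 CPM in polysomes with torin1. With LPS alone its total mRNA was lower, at 98.1, 98.7 and 90.3 CPM, and its polysome mRNA was 175, 135.5 and 135.7 CPM. Its loading was −0.04 with torin1 and 0.63 with LPS.

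**Figure D3:**
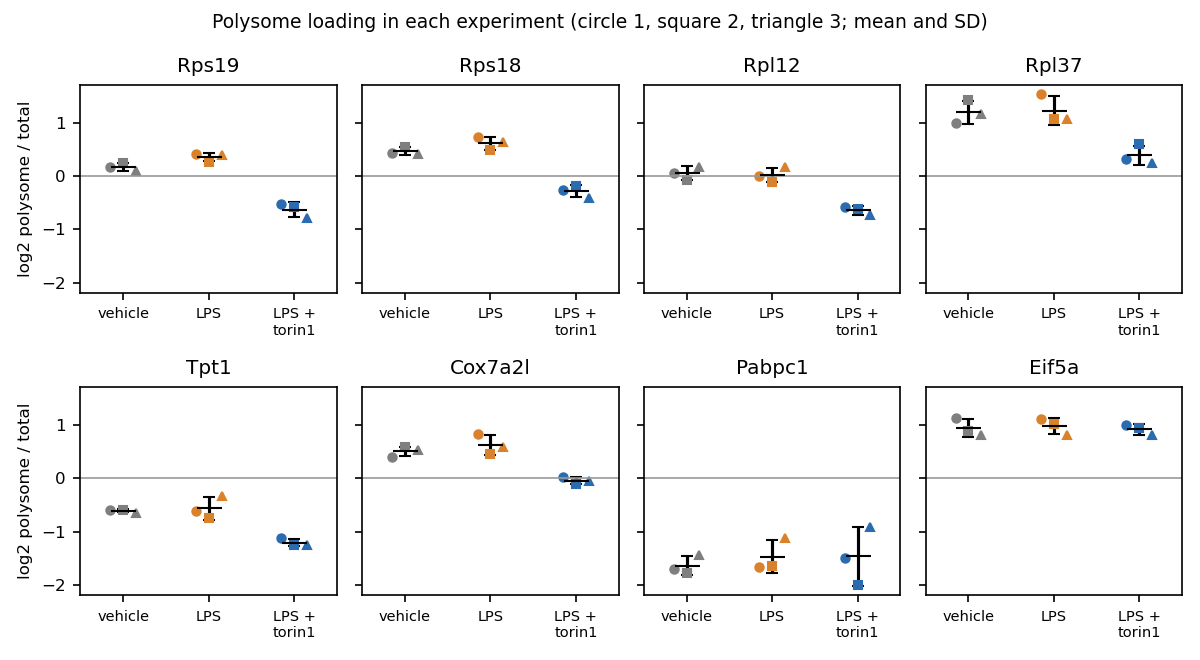
Log2 ratio of polysome-associated to total mRNA of 8 genes in vehicle, LPS and LPS + torin1 cells. Points are the 3 experiments, and bars show the mean and SD. Rps19, Rps18, Rpl12, Rpl37, Tpt1 and Cox7a2l have all 3 torin1 values below the other values, and Pabpc1 and Eif5a overlap between treatments.

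Ribosomal protein genes with a TOP-like start had a median difference from LPS of −0.66 (26 genes), and those without one in the window had −0.51 (32 genes). The same split over all genes gave −0.05 (1099 genes) and −0.02 (7469 genes). A TOP-like start alone thus went with a small median difference.

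The TOP mRNAs outside the ribosome, 19 translation factors and other proteins, had a median loading of −0.27 with torin1, −0.27 with LPS and −0.33 with vehicle. With torin1 3 were higher and 9 lower in polysomes. Pabpc1, the cytoplasmic poly(A)-binding protein, was lowest, with 1911, 1986 and 2205 CPM in total mRNA and 682, 497 and 1177 CPM in polysomes. Its loading was −1.46, and it was −1.47 with LPS. Btf3, the beta subunit of the nascent chain complex, was highest (0.42). The elongation factor mRNAs Eef1a1 (−0.22) and Eef2 (−0.07) did not pass the test. Of the list, only Tpt1 fell against LPS. The 3 torin1 ratios lay below all 3 LPS ratios for 6 of 19 genes (31.6%, against 4.56% of all genes). They lay above them for 1 (5.26%, against 1.43%). For vehicle the counts were 3 below (15.8%, against 6.81% of all genes) and 0 above.

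Of the 35 other initiation, elongation and release factors, 7 were higher and 12 lower, against 24.4% and 25.5% of all genes. The count of higher genes was thus near the background. Eif5a, the hypusine-containing factor, was highest at 0.92, with 913, 910 and 913 CPM in total mRNA and 1837 and 1747 CPM in polysomes of experiments 1 and 2. In experiment 3 its log2 ratio was 0.81. The scaffold Eif4g3 was lowest (−0.87). Members named besides the ends of a list were chosen after their values were seen. Among the eIF3 subunits of this list, Eif3a (−0.75), Eif3j1 (−0.55), Eif3c (−0.35) and Eif3d (−0.28) were lower in polysomes. Eif3i (0.48) and Eif3g (0.39) were higher, and Eif3b, Eif3l and Eif3m did not pass the test. No gene of this list passed the test against LPS.

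For the mTOR pathway itself 46 of 51 listed genes were measured, and 19 were higher and 9 lower, with a median of 0.19. Eif4ebp2, one of the 4E-BP inhibitors, was highest at 1.13, with 17.3, 15.8 and 17.98 CPM in total mRNA and 37.1, 40.01 and 34.8 CPM in polysomes. Eif4ebp1 (0.58), Akt1 (0.88), Akt2 (1.03) and Ulk1 (0.78) were higher as well. The S6 kinase gene Rps6kb1 (−0.61) and Rictor (−0.35) were lower. Mtor had a loading of 0.01 and Larp1 one of −0.10, neither past the test. None of the pathway genes passed against LPS.

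Nuclear-encoded respiratory chain and ATP synthase subunits were higher in polysomes in 57 of 78 cases and lower in 0, with a median of 0.56 and experiment medians of 0.60, 0.70 and 0.40. Atp5j2, a small membrane subunit of the ATP synthase, had 89.1, 96.5 and 92.8 CPM in total mRNA and 213, 225 and 199 CPM in polysomes, a loading of 1.19. Ndufs1, the largest complex I core subunit, was lowest (−0.31) and did not pass the test. Mitochondrial ribosomal proteins followed with a median of 0.44, 44 higher and 7 lower of 76. Mrps15 was lowest (−0.93). Their median was 0.53 with LPS.

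The 10 mRNAs of the mitochondrial genome, which are translated inside the organelle by its own ribosomes, were all lower in polysomes, with a median of −2.13. The loading ranged from −1.08 for mt-Co1 to −2.86 for mt-Atp6. mt-Nd1, a complex I subunit (chrM:2751-3707), had 2957, 2670 and 3186 CPM in total mRNA and 396, 329 and 587 CPM in polysomes. These mRNAs took between 1.88% and 2.28% of the counts in total mRNA and between 0.769% and 1.06% in polysomes. The medians of the list were −2.34 with LPS and −2.59 with vehicle.

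The 10 highest genes by the naming rule were all replication-dependent histone genes, which make core histones in S phase from mRNAs without a poly(A) tail. Of 56 histone genes 48 were higher in polysomes and 2 lower, with a median of 1.53. The experiments differed strongly, with medians of 1.24, 2.76 and 0.47. Hist1h4h had 9.39, 8.96 and 8.06 CPM in total mRNA and 33.6, 116.6 and 16.1 CPM in polysomes, so that the total level was even and experiment 2 stood apart in polysomes. Histone reads took 0.0593% to 0.0672% of counts in the 3 totals and 0.151%, 0.427% and 0.0894% in the polysome libraries of experiments 1 to 3. Without experiment 2 the list median was 0.85. Histone genes are near-identical copies, so single members are uncertain. Their difference from LPS did not pass for any member.

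Outside the histones, a group looked up after the values were seen, the highest genes were Pet100 (1.53), Cyp4f39 (1.45), Lpar5 (1.43), 2010107E04Rik (1.39), Glrx (1.37), 4933408B17Rik (1.36), Sdhaf4 (1.35), Chchd1 (1.33), Nop10 (1.32) and Tmem246 (1.3). Several encode small proteins: Pet100 (76 residues) and Sdhaf4 assist assembly of respiratory complexes, Chchd1 belongs to the mitochondrial ribosome, Nop10 to the box H/ACA particles, and Glrx is a glutaredoxin. Pet100 had 10.4, 10.1 and 9.35 CPM in total mRNA and 33.9, 28.1 and 25 CPM in polysomes. Glrx had 64.9, 143 and 85.2 CPM in total mRNA and 204, 344 and 194 CPM in polysomes. In both, each polysome value was above every total value.

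At the low end outside the mitochondrial genome, also looked up afterwards, stood Spag1 (−2.11), Ccdc18 (−1.96), Zfp933 (−1.90), Cep290 (−1.89), Gm5611 (−1.86), Dst (−1.81), Cenpe (−1.77), Mndal (−1.75), Nucb2 (−1.72) and Ccdc55 (−1.64). Cep290 encodes a centrosomal protein of 2479 residues, Cenpe a kinetochore motor and Dst a cytoskeletal linker. Cenpe had 192, 191 and 229 CPM in total mRNA and 56.4, 43.1 and 87.0 CPM in polysomes. None of these 20 genes passed the test against LPS.

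Loading was lower the longer the coding sequence, whose length was taken from a GENCODE annotation of GRCm38 for 10755 genes. Genes encoding under 200 residues had a median of 0.34 (1448 genes), those with 200 to under 400 residues 0.11 (3140), those with 400 to under 800 residues −0.07 (3955), those with 800 to under 1600 residues −0.19 (1733), and those with at least 1600 residues −0.33 (479). The share higher in polysomes went from 45.6% in the shortest class to 10% in the longest, and the share lower from 9.19% to 48.6%. The spread between experiments was widest in the longest class, with −0.23, −0.52 and −0.23. The Spearman coefficient of loading with coding length across genes was −0.300, a description over genes that share libraries. With LPS alone the shortest class had a median of 0.50 and the longest −0.41.

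**Figure D4:**
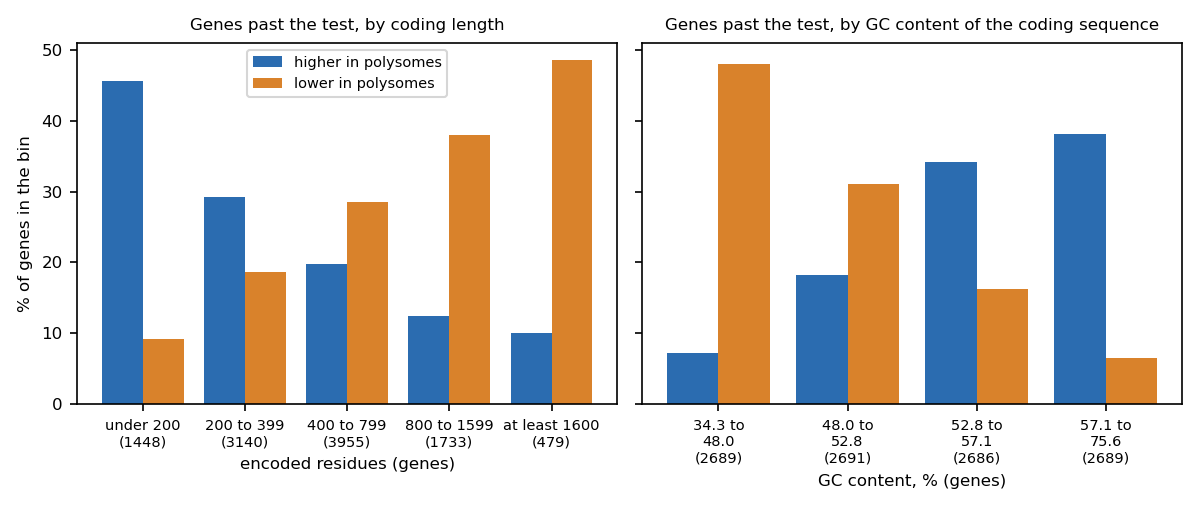
Share of genes in each class that were higher (blue) or lower (orange) in polysomes with LPS + torin1 at an adjusted p of at most 0.05, by encoded residues and by GC content of the coding sequence, with the number of genes in parentheses. The share higher drops with length and grows with GC content.

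GC content of the coding sequence moved with loading more than length did. The Spearman coefficient was 0.459 with torin1, 0.558 with LPS and 0.643 with vehicle, and −0.506 for the difference from LPS. Loading was −0.33 in the 2689 genes with the lowest GC content and 0.31 in the 2689 with the highest. The part of GC content in the list values was not tested beyond the correction that follows. After a correction of every library for GC content and transcript length, chosen after the data were seen, 5510 of 10755 genes passed, of which 3851 were among the 5615. The ribosomal protein genes, with a median GC content of 52.9%, then had a median loading of −0.39, with 3 higher and 51 lower of 79, against 0.03 with LPS and 0.00 with vehicle. Their median difference was −0.42 from LPS and −0.37 from vehicle, and 25 and 24 genes fell. The median differences were thus smaller with the correction, and the numbers of genes were larger.

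**Figure D5:**
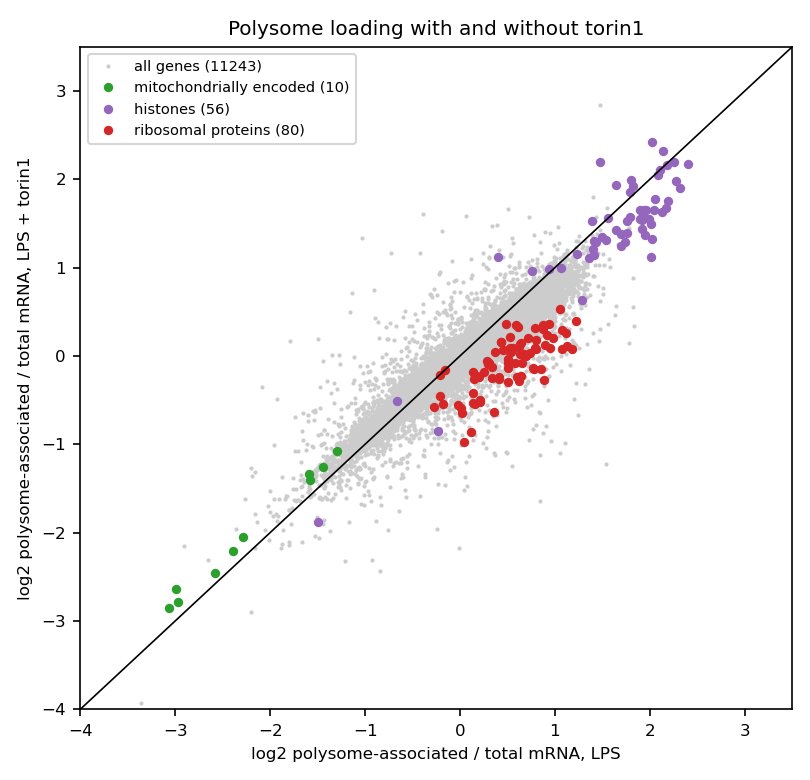
Fitted log2 ratio of polysome-associated to total mRNA with LPS + torin1 against that with LPS, with one point per gene and the line of equality. The 80 ribosomal protein genes (red) lie below the line apart from Rpl5, which is on it, and the mitochondrially encoded mRNAs (green) lie slightly above it.

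Among the mRNAs of the activated macrophage, cytokines lay mostly above 0 and interferon-stimulated genes mostly below. Of 25 measured cytokine and chemokine genes 10 were higher in polysomes and 0 lower, with a median of 0.36. Ccl7, a monocyte chemoattractant, was highest, with 52.6, 110.7 and 74.1 CPM in total mRNA and 134, 210 and 142 CPM in polysomes, a loading of 1.07. Tnf (0.67), Ccl4 (0.63), Cxcl10 (0.60) and Ccl2 (0.52) were higher, and Il1b (0.36) did not pass the test. Spp1, osteopontin, was lowest at −0.35 and did not pass either. The median with LPS alone was 0.59, and no cytokine gene passed the test of the difference.

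Interferon-stimulated genes went mostly the other way, with 21 of 47 lower in polysomes, 4 higher and a median of −0.26. Gbp7, a guanylate-binding protein, had 98.4, 231 and 96.0 CPM in total mRNA and 44.5, 79.1 and 46.0 CPM in polysomes, a loading of −1.25. Irf7 (−0.77) and Oas2 (−0.68) were lower. Isg15, a small ubiquitin-like protein, was highest (0.83), and Bst2, Oas1a and Zbp1 were the other 3 that were higher. For both of Gbp7 and Isg15 total mRNA of experiment 2 was the highest of the 3.

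Of 26 NF-kB subunits and feedback inhibitors 11 were higher (42.3%, against 24.4% of all genes) and 6 lower (23.1%, against 25.5%). Bcl3 (1.03) and Rela (0.81) were higher, and Tnip2 (−0.70) and Rel (−0.54) were lower. Of 29 immediate-early transcription factors 5 were higher and 3 lower, both below the shares of all genes. Id3 was the highest (0.99) and Klf6 the lowest (−0.63), and experiment medians were −0.11, 0.53 and −0.14. Of 13 measured enzymes of nitric oxide, itaconate and prostaglandin synthesis 5 were higher and 3 lower, the latter near the 25.5% of all genes. The prostaglandin synthase Ptgs2 (−0.69), the itaconate enzyme Irg1 (−0.58) and the oxidase subunit Cybb (−0.72) were lower, and Gch1, which makes the cofactor of nitric oxide synthase, was higher (0.77).

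In the secretory pathway 15 of 46 endoplasmic reticulum genes were higher (32.6%) and 11 lower (23.9%, near the 25.5% of all genes), with a median of −0.02. Spcs1, a small signal peptidase subunit, had 71.4, 72.1 and 70.7 CPM in total mRNA and 198, 145 and 155 CPM in polysomes, a loading of 1.203. Sec62, a translocon component, had 118.9, 105.8 and 115 CPM in total mRNA and 60.5, 39.2 and 77.3 CPM in polysomes (−0.99). The chaperones Hspa5 (−0.53), Calr (−0.62) and Hsp90b1 (−0.50) were lower in polysomes.

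For the lysosome pathway list of the study 46 genes were higher, 9 lower and 58 neither, with a median of 0.18, against 0.27 with LPS and with vehicle. Among the 19 V-ATPase subunits 8 were higher and 4 lower. The V0 subunit Atp6v0e (0.89) was highest and the V1 subunit Atp6v1h (−0.67) lowest. In the panel of 15 mRNAs that the study also followed by RT-qPCR across gradients, 7 were higher (Ppia, Slc11a2, Cln3, B2m, Ctsd, Npc2 and M6pr, from 0.95 down to 0.32), and Atp6v1h and Actb (−0.31) were lower. Lamp1 had a loading of −0.01. The study drew its lysosome list from the KEGG pathway database. It picked part of the panel from its own sequencing results, and panel and list share genes, so their counts are not independent evidence. None of the lysosome genes passed the test against LPS.

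SR and hnRNP splicing proteins were low in polysomes, with 24 of 37 lower, 2 higher and a median of −0.52. Hnrnph2 had 161, 139 and 134 CPM in total mRNA and 73.2, 37.8 and 60.8 CPM in polysomes (−1.38). Srsf9 (0.63) and Srsf7 (0.28) were the 2 higher ones. Zinc finger genes of the Zfp series were lower in 128 of 279 cases and higher in 23, with a median of −0.37. Zfp933 was lowest and Zfp637 highest (0.85).

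Of 38 ATF4 targets and tRNA synthetases 8 were higher (21.1%) and 10 lower (26.3%), near the 24.4% and 25.5% of all genes. Slc7a5, a leucine transporter subunit, had 76.8, 72.4 and 71.2 CPM in total mRNA and 154, 148 and 152 CPM in polysomes, a loading of 1.04 with non-overlapping groups. The threonyl-tRNA synthetase Tars (−0.91) was lowest. In the list of 17 mRNAs with known regulatory upstream reading frames 5 were higher (29.4%) and 4 lower (23.5%), also near the shares of all genes. Ddit3, which encodes CHOP, was lowest (−0.95), with 28.3, 21.0 and 18.7 CPM in total mRNA and 11.7, 14.7 and 8.88 CPM in polysomes, and Slc35a4 was highest (0.86). Atf4 itself was at −0.19 and did not pass.

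Proteasome subunits were higher in 13 of 38 cases and lower in 4, with a median of 0.19, Psma2 (0.74) and Psmc1 (−0.81) at the ends. Macrophage markers were higher in 9 of 16 and lower in 3, with Lyz2, lysozyme, highest (0.73) and the scavenger receptor Msr1 lowest (−0.66). Of the other cell type markers Itgax was lower (−0.38) and Cdh5 (0.31) did not pass.

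The correction for GC content and length moved several of these lists by more than 1.5 times or turned them. With it the median was 0.14 for mitochondrial ribosomal proteins (28 higher, 10 lower), 0.23 for nuclear-encoded respiratory chain subunits (37 higher, 9 lower), −1.35 for mitochondrially encoded mRNAs, 0.93 for histones, −0.14 for zinc finger genes and −0.31 for splicing proteins, each in its former direction. It was −0.01 for proteasome subunits, −0.25 for immediate-early factors, 0.26 for mRNAs with upstream reading frames, 0.07 for nitric oxide, itaconate and prostaglandin enzymes, 0.06 for macrophage markers and 0.13 for endoplasmic reticulum genes. Cytokines (0.25) and the lysosome list (0.19) moved less. Rpl37 and Rpl37a changed sign under it.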

How the data were processed

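Per the labels and the study's methods, total mRNA and pooled heavy polysome mRNA of each lysate were sequenced as stranded libraries after ribosomal RNA removal. The authors ran the nextflow RNAseq pipeline at its defaults, with alignment by Hisat2 (build GRCm38) and featureCounts counting over Ensembl genes. The deposited values are raw counts of 11243 protein-coding genes in 18 libraries, with genes at 0 in any library already removed. The versions of aligner and annotation and the strand setting of the counting are not given in the sources used here.

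The tools were edgeR 4.0.16 and R 4.3.3. After TMM normalization of all 18 libraries, edgeR's quasi-likelihood test was fitted with 9 lysates as blocks and 1 polysome-minus-total term per treatment (6 residual degrees of freedom), with Benjamini-Hochberg adjustment over all genes. Values per experiment used a pseudocount of 0.5 counts. CPM are TMM-normalized. Lysates pair libraries by design, and deviations of the same lysate correlated at 0.418 to 0.446. Between different lysates the mean was −0.212. That value follows from centring each kind of RNA on its own mean and adds no separate evidence. Replicates differed by more than counting error (chi-squared per degree of freedom at least 38.4).

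Named genes were the 10 highest and lowest with at least 100 counts on average and 1 sign in 3 experiments, the ends of each list, the RT-qPCR panel and genes whose loading differed. Members and lists were chosen with earlier results of these data known. No table of proteins was given, so coding length was taken from the annotation. Scripts were tested on simulated counts. Alternatives were DESeq2 1.42.0, other size factors, filters, thresholds, no block, the 6 libraries alone, each experiment left out, and, added later, a term for experiment number and a correction for GC content and length. TOP-like starts came from RefSeq promoters. Single values of some genes that the rule names are not reported here, and counts and medians include them.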

Additional observations from a re-analysis of the deposited data

Results flagged for a closer look

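Loading differed between LPS with torin1 and LPS alone, by the test of the difference between both polysome-to-total ratios, for 25 genes, all lower with torin1. On the log2 scale ribosomal protein genes of the large subunit differed by −0.70 (Rpl31), −0.78 (Rpl37a), −0.77 (Rpl26), −0.70 (Rpl27), −0.84 (Rpl37), −0.66 (Rpl12), −0.69 (Rpl34), −0.84 (Rpl32) and −0.80 (Rpl28). Genes of the small subunit differed by −1.002 (Rps15), −0.72 (Rps7), −0.73 (Rps23), −0.90 (Rps18), −1.02 (Rps14), −0.85 (Rps27), −0.99 (Rps19), −0.66 (Rps13) and −0.77 (Rps15a). The difference was −0.64 for Tpt1, −0.67 for Cox7a2l, −1.10 for Gm11808, −1.21 for Rps18-ps3 and −1.08 for Rps27rt. Against vehicle, the difference was −0.75 for Rps18, −0.80 for Rps19 and −1.56 for Tmem132a. The ratios of Tmem132a with torin1 were −0.88, 0.02 and −0.09, against a fitted 1.25 with vehicle and −0.28 with LPS. Its difference from LPS alone was −0.03 (adjusted p = 0.993 in edgeR's quasi-likelihood test). The groups here hold 3 experiments each, too few for a check for single samples that stand apart.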

How the results depend on the processing

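Against LPS the number of genes was 25, and it was 0 with no replicate block, 16 with DESeq2 size factors, 40 by DESeq2's Wald test, 31 with the GC and length correction (29 lower, 2 higher), 36 with a term for experiment number across treatments, 4 at an adjusted p of at most 0.05, and 0 to 115 with an experiment left out (115 without experiment 2, 0 without either other one). Against vehicle the 3 genes became 0 with no replicate block, with either other scaling and at an adjusted p of at most 0.05, 31 by DESeq2, 36 with the GC and length correction, 27 with the term for experiment number and 0 to 3708 with an experiment left out (3708 without experiment 2, 2 without experiment 3 and 0 without experiment 1). The 6 libraries alone give no value for either difference. The cause was not tested. Polysome against total with LPS and torin1 gave 3481 genes with no replicate block, of which 3478 were among the 5615, and 3930 to 5000 with an experiment left out. That term was added after the data were seen and leaves 4 residual degrees of freedom. Deviations of the ratios with torin1 and with LPS correlated at −0.039, 0.282 and 0.387 in experiments 1 to 3 and those with torin1 and vehicle at −0.0756, −0.159 and 0.109, so the data do not show that the numbers pair the treatments. The pairing within lysates changed no direction of a named gene.

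For list medians, the mTOR pathway was 0.22 with DESeq2 size factors, by library totals and by DESeq2, and 0.12 with at least 10 counts in every library. Under these 3 scalings mitochondrially encoded mRNAs were at −2.11, zinc finger genes at −0.34 and cholesterol synthesis at 0.11. With at least 10 counts mitochondrially encoded mRNAs were at −2.06 and the other cell type markers, then 1 gene, at −0.38. With no replicate block zinc finger genes were at −0.35 and nitric oxide, itaconate and prostaglandin enzymes at 0.20.

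The GC and length correction moved the large ribosomal subunit to −0.35, the small one to −0.51, mTOR pathway to 0.16, mitochondrial ribosomal proteins to 0.14, respiratory chain to 0.23, mitochondrially encoded mRNAs to −1.35, zinc finger genes to −0.14, nitric oxide and related enzymes to 0.066, ATF4 targets to −0.13, splicing proteins to −0.31, cholesterol synthesis to 0.12, glycolysis to −0.27, cytoskeleton to −0.22 and macrophage markers to 0.057. It reversed proteasome subunits (−0.0053), mRNAs with upstream reading frames (0.26), Rpl37 (−0.041) and Rpl37a (−0.23).

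With an experiment left out, medians lay between 0.16 and 0.22 for the mTOR pathway, 0.31 and 0.48 for mitochondrial ribosomal proteins, −2.14 and −2.10 for mitochondrially encoded mRNAs, 0.15 and 0.25 for nitric oxide and related enzymes, −0.12 and 0.018 for mRNAs with upstream reading frames (0.018 without experiment 2), −0.57 and −0.38 for splicing proteins, 0.13 and 0.16 for cholesterol synthesis, and −0.12 and −0.029 for glycolysis. Depth limited 617 of the 11243 genes, which had under 10 counts in at least 1 of the 6 libraries.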

Other observations

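Metabolic and structural genes not described above were spread around 0 in polysomes with LPS and torin1. Of 21 glycolysis genes 2 were higher and 6 lower, the latter near the 25.5% of all genes, with a median of −0.07. The phosphofructokinase Pfkp (−0.70) was lowest, the hexokinases Hk1 (−0.65) and Hk2 (−0.62) were lower as well, and the bifunctional enzyme Pfkfb4 was highest (0.44). Of 25 cholesterol synthesis genes 7 were higher (28%, near the 24.4% of all genes) and 4 lower. Scap, the escort protein of the sterol-sensing factors, was highest (1.13) and the demethylase Cyp51 lowest (−0.51). Of 34 cytoskeleton genes 4 were higher and 8 lower, the latter near the 25.5% of all genes. Profilin (Pfn1) had 636, 640 and 466 CPM in total mRNA and 1081, 1283 and 1169 CPM in polysomes, a loading of 1.03. Tropomyosin 3 (Tpm3) had 351, 350 and 350 CPM in total mRNA and 147, 167 and 168 CPM in polysomes, a loading of −1.13. In both genes the totals and polysomes did not overlap.

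Start codons ahead of the coding sequence hardly moved with loading. The Spearman coefficient with the number of upstream ATG triplets was 0.00154 across 10755 genes. Genes with 0 of them had a median loading of −0.01 (5274 genes) and genes with over 5 had −0.08 (617 genes). The length of the 5′ untranslated region had a coefficient of −0.0676 and that of the 3′ untranslated region −0.186.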
